A study of Mus musculus with 2 samples.

Results

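The gelatinase granule genes described here are 7 of the 25943 genes in the table: Mmp8, Mmp9, Mmp25, Adam8, Pglyrp1, Itgam and Slc11a1. They were taken by name, whatever their values. All 7 had unique molecular identifiers (UMIs, which count mRNA molecules) in both libraries. Gelatinase granules are storage vesicles that neutrophils build late in maturation, after the primary (azurophil) and secondary (specific) granules. Their proteases cut collagen and other matrix proteins, and their membranes carry adhesion receptors that reach the cell surface when the granules fuse with it. The contents of a granule are known to depend largely on which mRNAs are made while that granule forms, so the order of transcripts along the lineage is described here. Transcript levels do not show which granule a protein enters.

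The data came from all cells of the bone marrow of male wild-type (WT) mice aged 8 to 10 weeks. There was 1 control library and 1 library from the MCAO model (middle cerebral artery occlusion, which models ischemic stroke by closing a main vessel of the brain). The sources used here do not give how many mice each library came from, when marrow was taken relative to the occlusion or how controls were handled, and the treatment text in the labels names the MCAO model for both samples. Median depth was 3344 UMIs over 5212 control cells and 4952 over 5398 MCAO cells, a depth ratio of 1.48. Each group was 1 library, so no difference between conditions has a replicate check and no test was possible. Brackets give 95% intervals that cover counting error only.

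Cells were clustered with the 7 genes left out of the clustering, and clusters were named "like" a cell type from marker genes. The neutrophil line ran, in computed order, through cluster 13 (promyelocyte-like), cluster 7 (pre-neutrophil-like), clusters 2 and 0 (immature-neutrophil-like) and clusters 5, 1 and 9 (mature-neutrophil-like). Clusters 5 and 1 had nearly the same median position in this order (0.971 and 0.973), so they are not read as successive stages. Monocyte-like cells formed cluster 3, cluster 10 and cluster 20, and the last of these, led by Ace and Cd300e, was named by marker score with none of its markers among its 10 leading genes. Cluster 0 was also named by score, with 1 marker there. The mature clusters held different shares of each library: cluster 5 had 33 control and 593 MCAO cells, cluster 1 had 849 and 290, and cluster 9 had 255 and 174. Values are therefore given by cluster. Cell labels were running numbers of which 5120 occurred in both libraries. Cells that shared a label fell in the same class in 13.7% of cases, against 13.1% if labels were independent, and barcodes were not given. A level is the gene's summed UMIs per 10000 UMIs of the cluster, and it is not scaled to gene length because each mRNA molecule counts once at its 3′ end. Free RNA in the suspension can add UMIs to any cell, so levels in the 2 B-cell-like clusters (4 and 8) that were not mostly marked doublets are given as a reference.

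The start regions of these genes are shown because their mRNAs come on at different points of the line, and because PU.1 and the C/EBP proteins are known regulators of neutrophil genes. RefSeq start sites on GRCm38.p6 were matched for 6 of the 7 genes, and Mmp9 had no entry. Shown are Pglyrp1 and Itgam, the members most abundant in the earliest cells, Mmp8, which had the largest step from cluster 7 to cluster 2, and Adam8, which was highest in mature cells. Each line holds the 250 bases before the start site, 5′ to 3′ on the gene's strand, with matches to GAGGAA (PU.1 core) or TTNNGNAA (C/EBP) on either strand in capitals. The windows are chr9:7558179-7558428 (+) for Mmp8, chr7:139992563-139992812 (-) for Adam8, chr7:18884440-18884689 (+) for Pglyrp1 and chr7:128062390-128062639 (+) for Itgam.
Mmp8: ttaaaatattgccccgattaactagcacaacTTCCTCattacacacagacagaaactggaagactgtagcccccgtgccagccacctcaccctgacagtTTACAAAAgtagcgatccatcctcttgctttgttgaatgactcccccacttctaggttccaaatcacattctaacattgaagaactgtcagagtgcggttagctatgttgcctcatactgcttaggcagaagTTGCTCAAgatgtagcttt
Adam8: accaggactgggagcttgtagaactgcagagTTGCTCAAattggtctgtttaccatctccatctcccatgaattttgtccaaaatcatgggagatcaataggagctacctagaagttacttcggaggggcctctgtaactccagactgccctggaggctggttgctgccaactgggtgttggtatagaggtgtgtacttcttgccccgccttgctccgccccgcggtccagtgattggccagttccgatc
Pglyrp1: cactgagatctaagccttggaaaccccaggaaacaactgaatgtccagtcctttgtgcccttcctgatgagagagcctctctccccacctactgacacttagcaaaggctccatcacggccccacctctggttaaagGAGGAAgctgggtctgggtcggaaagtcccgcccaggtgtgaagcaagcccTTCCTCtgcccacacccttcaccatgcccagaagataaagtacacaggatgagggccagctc
Itgam: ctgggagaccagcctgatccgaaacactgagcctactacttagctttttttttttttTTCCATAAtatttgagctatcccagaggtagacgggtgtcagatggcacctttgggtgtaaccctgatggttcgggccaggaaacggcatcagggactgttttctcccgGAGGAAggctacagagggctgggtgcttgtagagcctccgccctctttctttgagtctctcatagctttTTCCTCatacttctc
The Mmp8 window held 1 match to the PU.1 core and 2 to the C/EBP letters, the Adam8 window 0 and 1, the Pglyrp1 window 2 and 0, and the Itgam window 2 and 1. The Mmp25 window, not shown, held 1 and 0, and the Slc11a1 window, not shown, 1 and 3, one of them reading the same on both strands. Mmp8 and Adam8 both held TTGCTCAA, at -19 and -219 from their start sites. Among all 32851 RefSeq windows of this length, 23.3% held GAGGAA and 36.8% held TTNNGNAA. None of the printed matches overlapped another. A match describes letters and does not show that a factor binds.

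All 7 genes lie on autosomes in the mm10 annotation used (GENCODE M21), and each is protein-coding. Mmp8 (ENSMUSG00000005800) spans chr9:7558456-7568485 (+), Mmp9 (ENSMUSG00000017737) chr2:164940780-164955850 (+) and Mmp25 (ENSMUSG00000023903) chr17:23628311-23645277 (-). Adam8 (ENSMUSG00000025473) spans chr7:139978932-139992562 (-), Pglyrp1 (ENSMUSG00000030413) chr7:18871331-18890459 (+), Itgam (ENSMUSG00000030786) chr7:128062640-128118491 (+) and Slc11a1 (ENSMUSG00000026177) chr1:74375195-74386062 (+). Itgam overlaps the gene model Gm49368 on its own strand, Adam8 overlaps Mir7062 on its own strand and Gm16201 on the other, and Mmp25 overlaps AC154766.2 and AC154766.3 on the other strand. The strand setting of the counting is not given, so reads of Itgam, Adam8 and Mmp25 may include some from those models.

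The genes did not come on together along the neutrophil line. Pglyrp1 and Itgam were already abundant in promyelocyte-like cells, the 3 matrix metalloproteases were highest in the late immature cluster 0, Adam8 was highest in the first mature clusters and Slc11a1 in late mature cells. Each gene was highest in the same cluster in both libraries, apart from Adam8, which was highest in cluster 1 of the control library and in cluster 5 of the MCAO library. Clusters 1 and 5 cannot be ranked for Adam8, since their ratio was 1.00 in control [0.759 to 1.35] and 0.983 in MCAO cells [0.869 to 1.11]. In each library 5 of the 7 genes were highest in cluster 0, where 4.25% of 9132 control genes and 3.73% of 10096 MCAO genes had their highest level along the line.

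Pglyrp1, a secreted peptidoglycan recognition protein that binds bacterial cell walls, stood at 22.0 UMIs per 10000 in control and 21.1 in MCAO promyelocyte-like cells. It was at 52.6 and 50.8 in cluster 0 and at 17.2 and 22.9 in cluster 9. Its range along the line was the narrowest of the 7 in relative terms. Itgam encodes CD11b, the alpha chain of the integrin Mac-1 that neutrophils use to adhere to vessel walls. Its level was 5.29 in control and 5.27 in MCAO promyelocyte-like cells, 13 and 12.2 in cluster 7, 23.9 and 21.0 in cluster 2, and 24.3 and 22.9 in cluster 0. In the mature clusters it lay between 10.4 and 13.3, near the pre-neutrophil-like level. Itgb2, the beta chain of the same integrin, was also highest in cluster 0, at 18.9 in control and 18.1 in MCAO cells.

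Mmp8, the neutrophil collagenase, showed the largest step of the 7 genes after the pre-neutrophil stage. Its level was 2.42 in control and 2.67 in MCAO pre-neutrophil-like cells, little above the 1.92 and 2.14 of the B-cell reference, and then 34.3 and 29.2 in cluster 2 and 116 and 104 in cluster 0. The step from cluster 7 to cluster 2 was 14.2-fold in control [13 to 15.5] and 11-fold in MCAO cells [10.3 to 11.7]. In cluster 0 every cell of both libraries had at least 1 Mmp8 UMI, with a mean of 53.3 UMIs per control cell and 54.7 per MCAO cell. Mmp8 then stood at 81.1 and 70.2 in cluster 1 and at 12 and 10.1 in cluster 9, where it was 6.76-fold lower than in cluster 1 in control and 6.93-fold lower in MCAO cells.

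Mmp9, gelatinase B, which gives the granule its name, was also far higher from cluster 2 on, and more of its level was left in late cells. It was at 4.12 in control and 3.80 in MCAO pre-neutrophil-like cells, 30.9 and 29.0 in cluster 2, and 64.6 and 69.9 in cluster 0. In cluster 9 it was still at 22.1 in control and 33.7 in MCAO cells, which was 2.02-fold and 1.64-fold below cluster 1. Mmp25, a metalloprotease anchored in the membrane and also called leukolysin, was far scarcer. It reached 3.05 in control and 2.88 in MCAO cells of cluster 0, where 62.7% and 67.3% of cells had a UMI, and was at 0.175 (7 UMIs) and 0.540 (18 UMIs) in cluster 9. Unlike Mmp8 it was well above the reference in pre-neutrophil-like cells, at 0.774 and 0.869 against 0.0630 and 0.0714 in the B-cell reference.

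Adam8, a membrane-bound metalloprotease and disintegrin that cuts cell-surface proteins, was higher in mature clusters 5 and 1 than in late immature cells, unlike the matrix metalloproteases. In mature cluster 9 Adam8 was lower than in late immature cells, at 2.80 in control and 1.77 in MCAO cells. Its level was 3.76 in control and 3.33 in MCAO cells of cluster 0 and 5.85 and 4.33 in cluster 1, against 0.133 and 0.159 in the B-cell reference. Slc11a1 (Nramp1), which carries divalent metal ions out of the phagosome, was the last to reach its highest level. It stood at 0.0957 or less in both libraries up to cluster 7, 0.890 and 1.01 in cluster 0, and 2.03 and 2.28 in cluster 9. Slc11a1 in cluster 5 of the control library, at 2.02, rested on 18 UMIs, so that cluster 5 and cluster 9 cannot be ranked for it in that library.

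**Figure D1:**
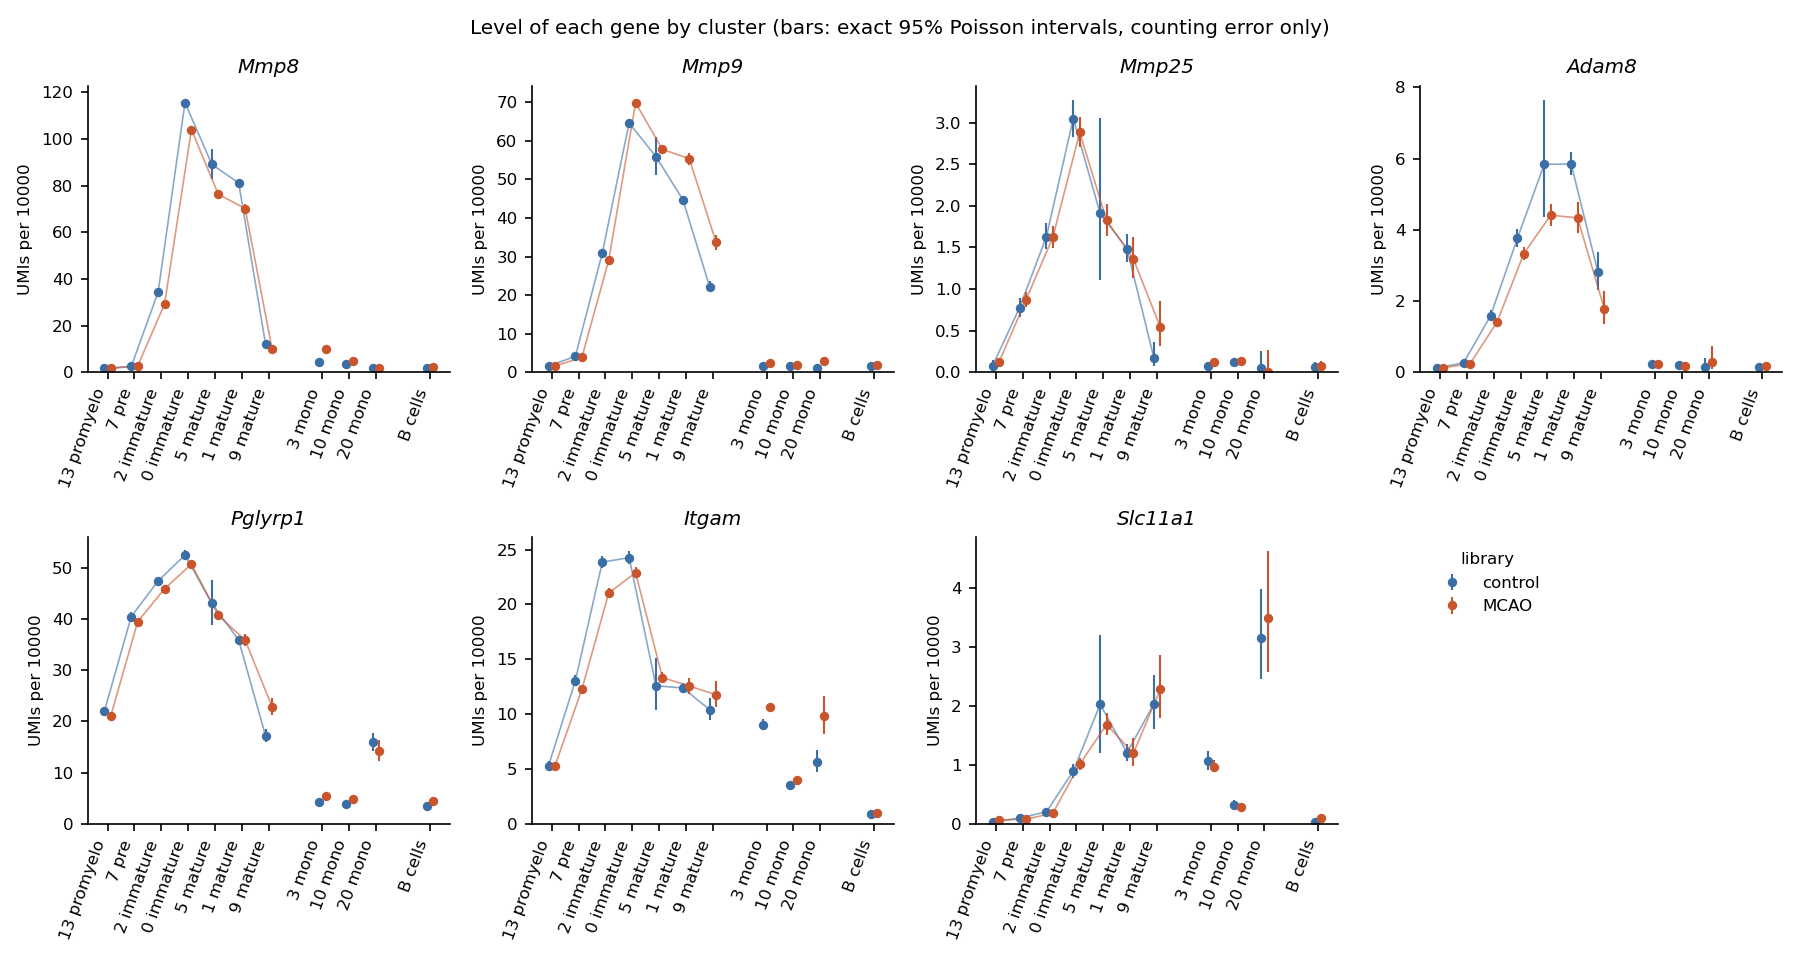
Level of each gene (UMIs per 10000, y axis, own scale per panel) in the 7 neutrophil-line clusters, 3 monocyte-like clusters and the B-cell reference (x axis), 1 point per library with exact 95% Poisson bars for counting error only. Mmp8, Mmp9, Mmp25, Pglyrp1 and Itgam are highest in cluster 0, Adam8 in clusters 5 and 1, and Slc11a1 is higher in monocyte-like cluster 20 than anywhere along the line.

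Counts of steps show where the changes sat. From cluster 13 to cluster 7 the level was at least 2-fold higher for 4 of 6 genes in control (5.55% of all genes tested) and for 3 of 6 in MCAO cells (4.2% of all genes), with Slc11a1 too rare to rank. From cluster 7 to cluster 2 it was 5 of 7 (4.29% of all genes) and 4 of 7 (3.69%). From cluster 2 to cluster 0 it was 4 of 7 in each library, against 4.3% of all genes in control and 4.05% in MCAO cells. From cluster 1 to cluster 9 the level was at least 2-fold lower for 5 of 7 genes in control (7.6% of all genes) and 3 of 7 in MCAO cells (5.52%). Mmp8 and Adam8 were past 2-fold in this last step in both libraries, as was Mmp25, while Mmp9 and Pglyrp1 were past it in control cells and at 1.64-fold and 1.57-fold in MCAO cells.

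Much the same order was seen when all 5372 cells of the line were ranked by diffusion pseudotime, a distance along the line computed without the 7 genes, and cut into 10 equal bins. Itgam was highest in the 4th bin of both libraries and Pglyrp1 in the 5th. Mmp8, Mmp9 and Mmp25 were highest in the 5th or 6th, and Adam8 in the 7th of both libraries. Slc11a1 was highest in the 9th bin in control and the 10th in MCAO cells. Of the secondary granule transcripts, Camp (cathelicidin) was highest in the 2nd bin of both libraries, and Ltf (lactoferrin) in the 4th bin of control cells, the same as Itgam, and the 3rd of MCAO cells. In the last bin Ltf was 49.9-fold below its highest level in control and 37.5-fold in MCAO cells, while Mmp8 was 3.04-fold and 3.28-fold below its own. Ltf and Camp, unlike the 7 genes, were not left out of the ordering, so these falls are not measured alike. The ordering used the same variable genes as the clusters and is not a separate check of them.

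**Figure D2:**
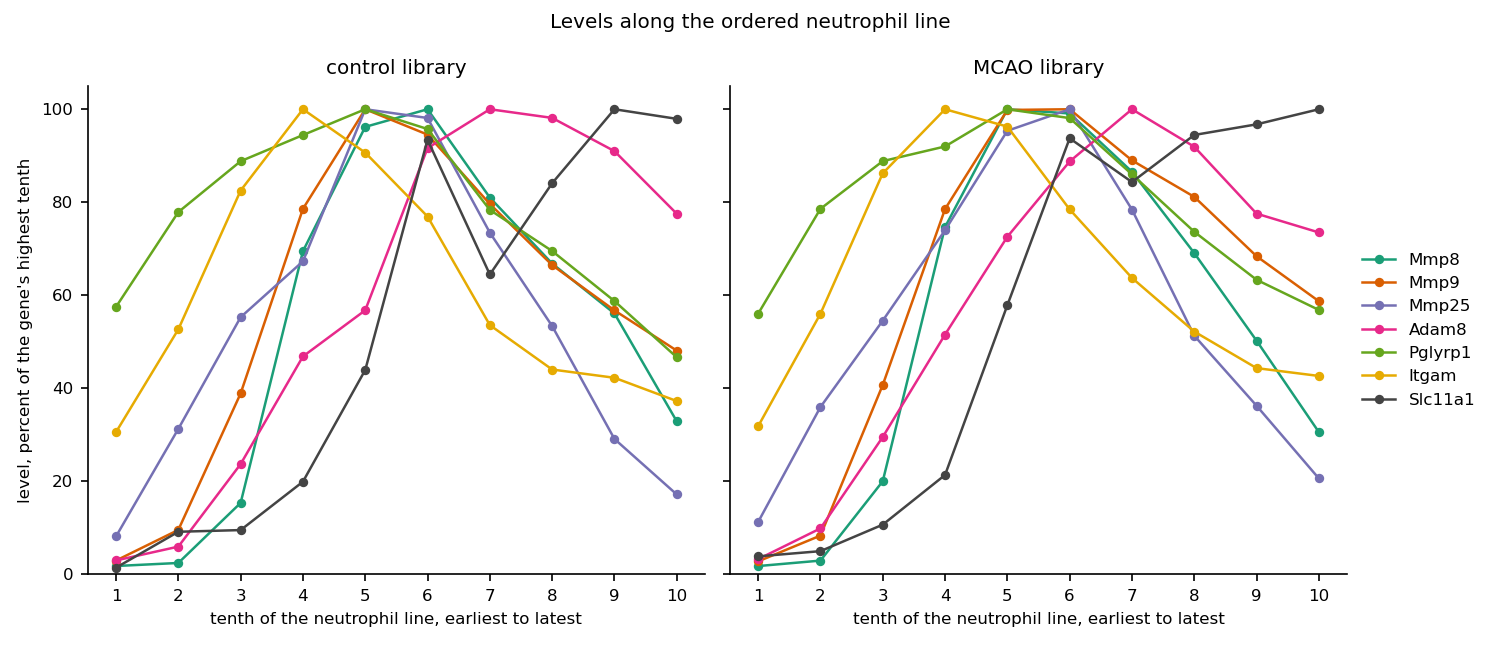
Level of each gene as a percentage of its own highest bin (y axis) over 10 equal bins of cells ordered along the neutrophil line (x axis), 1 panel per library, and cells of 1 library are not replicates. In both panels Itgam peaks first, Pglyrp1, Mmp8, Mmp9 and Mmp25 peak in bin 5 or 6, Adam8 peaks in bin 7 and Slc11a1 in bin 9 or 10.

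The makeup of the group's transcripts changed with stage. The 7 genes together took 30.7 UMIs per 10000 in control and 29.9 in MCAO promyelocyte-like cells, and Pglyrp1 was 71.7% and 70.7% of that sum. In cluster 0 the sum was 265 and 255, of which Mmp8 made up 43.7% and 40.8%. In cluster 9 it was 66.7 and 83.0, and Mmp9 was the largest part at 33.2% and 40.5%. Of all UMIs of each gene, neutrophil-like cells (pre-neutrophil to mature) held 90.5% (control) and 87.9% (MCAO) for Mmp8, 90.6% and 90.5% for Mmp9, and 56.4% and 58.6% for Slc11a1.

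Across the 25 clusters of at least 50 cells, both libraries summed, the genes whose log2 levels followed each member most closely differed between members. Mmp8 and Mmp9 shared their closest 3, which were Fpr1 (a receptor for formyl peptides, Pearson r of 0.96 with Mmp8 and 0.97 with Mmp9), Ceacam10 and Scrg1. Adam8 was most like Amer2, Fpr1 and Mmp9, and Mmp25 most like Ifnlr1, Bmpr1a and Chil1. Pglyrp1 was most like Acpp, S100a9 and S100a8, the last 2 being abundant calcium-binding proteins of neutrophils. Itgam was most like Pygl (glycogen phosphorylase), Nlrx1 and Prdx5. Slc11a1 was most like Tlr13, Sat1 and Fcgr4, and its r with the other 6 members ran from 0.51 (Mmp25) to 0.72 (Itgam). These are descriptions over clusters that share libraries and free RNA.

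Other genes of the same vesicles and their controls were taken from lists. All 4 primary granule genes (Mpo, Elane, Prtn3, Ctsg) were highest in cluster 13 in both libraries, where 45.2% of all control genes and 49.8% of all MCAO genes had their highest level. Of the secondary granule genes 5 of 6 were highest in cluster 2 (5.05% and 5.54% of all genes), with Camp highest in cluster 7. The 4 primary granule genes were among the markers used to name promyelocyte-like cells. Ltf, Camp, Ngp and Lcn2 served likewise for immature cells, Cebpe for pre-neutrophil-like cells and Csf3r for mature cells. The stages at which these marker genes were highest are therefore not independent of the naming. Of 15 further vesicle genes, 2 in control and 4 in MCAO cells were highest in cluster 0, among them Itgb2 and Plaur (the urokinase receptor) in both. Of 6 metalloprotease inhibitors, Timp1, Timp3, Timp4 and A2m had 0 UMIs in immature and mature cells of both libraries. Timp2 was the one inhibitor at an appreciable level, at 5.55 in control and 4.99 in MCAO mature cells, and Reck was at 0.536 and 0.511 in immature cells. Of 17 other matrix metalloproteases, 15 were in the table and none exceeded 0.225 in any cluster of the line, which rested on 2 UMIs of Mmp27 in the 33 control cells of cluster 5. Among 10 other ADAM genes, Adam19 had the highest level in mature cells, at 2.03 and 2.15 in cluster 1. Of 9 regulators, Cebpe was highest in cluster 7 (5.33 and 5.00), and Spi1 (PU.1), Cebpb, Cebpd, Csf3r, Klf2 and Runx1 were highest in cluster 9, as were 18.4% of all control and 20.3% of all MCAO genes.

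Between the libraries, none of the 7 genes was 1.5-fold apart in any neutrophil class with 100 cells in each library. In pre-neutrophil-like cells this was 0 of 6 genes ranked, where 3.88% of all genes were higher and 4.24% lower, with Slc11a1 at 22 and 27 UMIs. In immature cells it was 0 of 7 (3.45% higher and 4.58% lower over all genes) and in mature cells 0 of 7 (5.33% and 7.61%). The median log2 ratio of the members was -0.05 in immature cells and 0.17 in mature cells, where all genes had medians of -0.01 and -0.01. Without cluster 5 the mature median was -0.03, so the sign of that median turned on a cluster that was almost all from 1 library.

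Within clusters the metalloproteases went different ways. Mmp8 was lower in MCAO cells in all 5 clusters from 2 to 9, by a ratio between 0.845 in cluster 9 [0.733 to 0.973] and 0.900 in cluster 0 [0.886 to 0.914]. Mmp9 had a ratio of 0.940 in cluster 2, 1.08 in cluster 0, 1.03 in cluster 5, 1.24 in cluster 1 [1.19 to 1.28] and 1.52 in cluster 9 [1.39 to 1.66]. Mmp8 UMIs per Mmp9 UMI were lower in the MCAO library in each of these clusters. The balance was 1.79 in control and 1.49 in MCAO cells of cluster 0, 1.81 and 1.27 in cluster 1, and 0.542 and 0.301 in cluster 9. It ran the other way in pre-neutrophil-like cells (0.589 and 0.701), where Mmp8 was near the reference and Mmp9 above it. A lower balance in the MCAO library was not particular to the neutrophil line. It was also seen in erythroid-like (1.52 and 1.07), T-cell-like (1.32 and 0.641) and macrophage-like cells (1.72 and 1.14). In basophil-or-mast-like cells the balance was higher in the MCAO library (0.860 and 1.32). Along the ordered line Mmp8 was lower in the MCAO library in 8 of 10 bins and Mmp9 higher in 8 of 10.

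**Figure D3:**
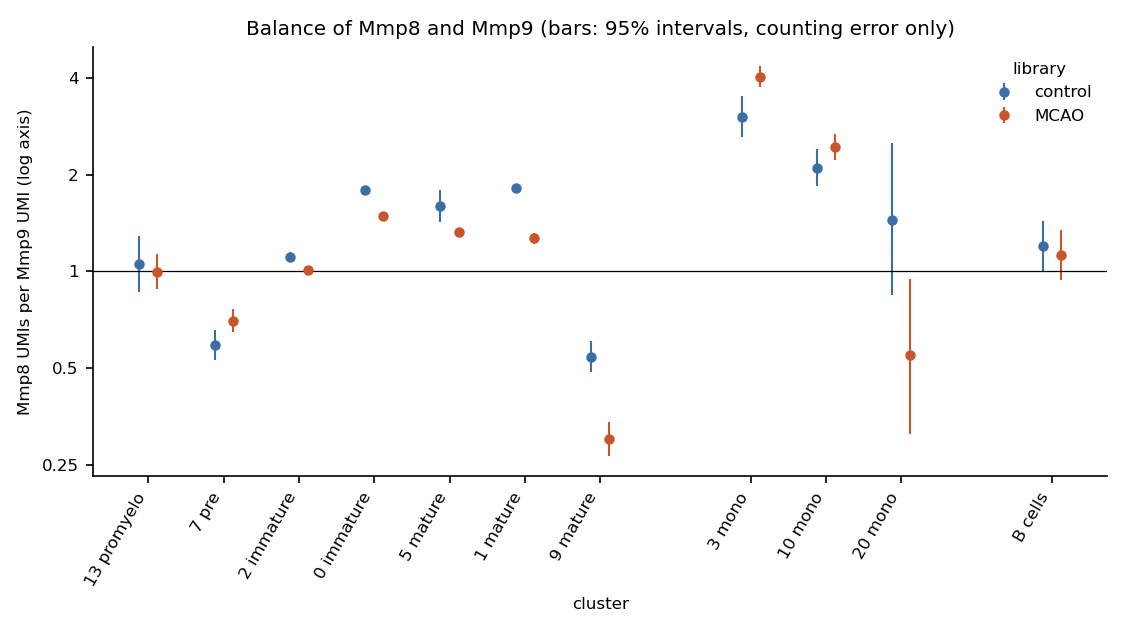
Mmp8 UMIs per Mmp9 UMI (y axis, log scale) by cluster (x axis) for the control and MCAO libraries, with 95% intervals for counting error only. MCAO points lie below control points in clusters 2, 0, 5, 1 and 9, and also in monocyte-like cluster 20 and the B-cell reference. They lie above control points in monocyte-like clusters 3 and 10.

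Over the whole mature class Mmp9 was at 41.8 in control and 54.5 in MCAO cells, a ratio of 1.31 [1.28 to 1.34] that exceeded that of 88.7% of genes ranked. Its log2 ratio was 0.38, and 0.26 without cluster 5. Adam8 was at 5.40 and 4.11, a ratio of 0.761 [0.706 to 0.821], with 13.2% of genes ranked below it. Its log2 ratio was -0.39, and -0.56 without cluster 5. Adam8 was below 1 in every cluster from 7 to 9, from 0.897 in cluster 7 [0.640 to 1.26] to 0.631 in cluster 9 [0.452 to 0.872], though intervals reached past 1 in clusters 7, 2 and 5. Pglyrp1 and Itgam were within 1.14-fold of control in either direction in clusters 13 to 1.

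Cluster 9, the late mature cells led by Il1b, held the widest differences of the line. Mmp9 was past 1.5-fold higher there, as 1 of 6 members ranked (9.54% of all genes), and Adam8 past 1.5-fold lower, also 1 of 6 (9.5% of all genes). After thinning each cell to 1000 UMIs, 82.1% of control cells [76.5 to 86.8] and 92.5% of MCAO cells [87.6 to 96.0] had an Mmp9 UMI, and 26 control cells were too shallow to enter. Pglyrp1 was at 17.2 and 22.9, a ratio of 1.33 [1.2 to 1.48]. Mmp25 had 7 and 18 UMIs, a ratio of 3.08 [1.23 to 8.72], too few to rank. In promyelocyte-like cells 1 of 6 members ranked was past 1.5-fold higher (5.48% of all genes higher and 4.6% lower): Mmp25, with 10 and 40 UMIs and an interval from 0.783 to 3.57.

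Over the mature class, erythroid markers, which belong to another lineage, summed to 6.67 in control and 12.3 in MCAO cells, and B-cell markers to 4.3 and 2.39, with all 10 and all 8 markers above 0 in both libraries. The same shift was seen in other classes. In immature cells the erythroid markers summed to 6.01 and 10.0 and the B-cell markers to 2.98 and 1.61. In monocyte-like cells the erythroid markers summed to 6.01 and 9.99 and the B-cell markers to 5.97 and 3.79. Their part in the differences was not tested.

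**Figure D4:**
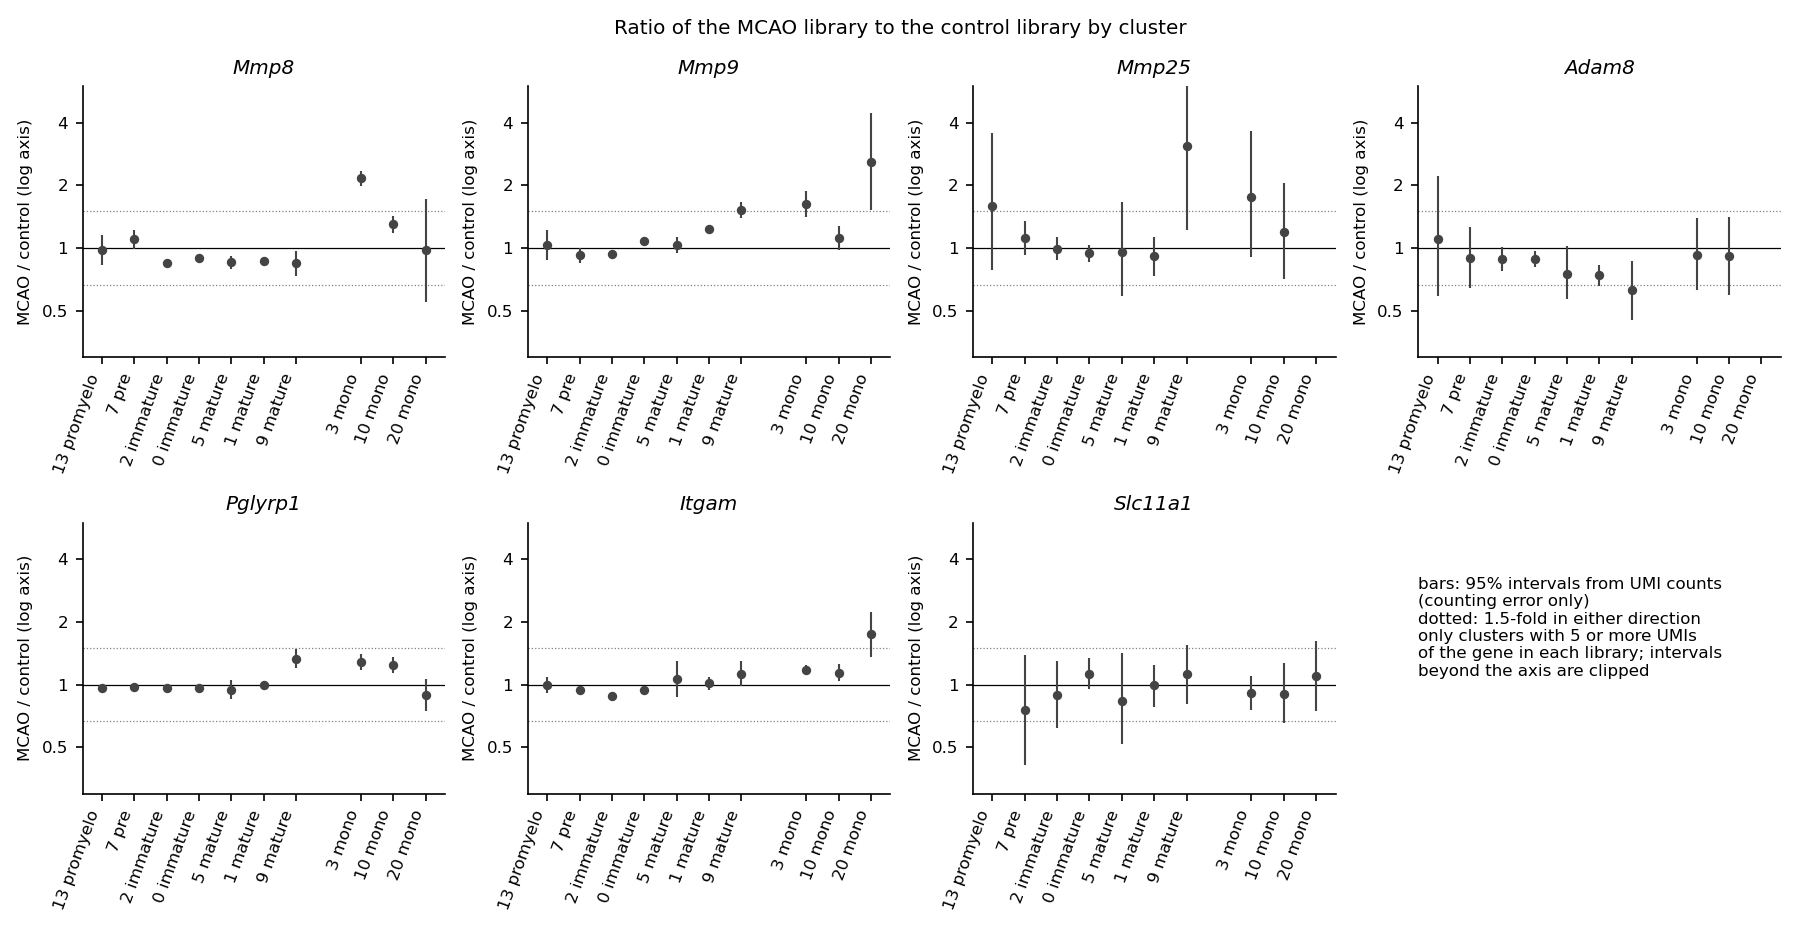
Ratio of the MCAO to the control library (y axis, log scale) for each gene by cluster (x axis), with 95% intervals for counting error only, dotted lines at 1.5-fold and points only where each library had 5 or more UMIs. Mmp8 sits below 1 from cluster 2 to cluster 9 and at 2.16 in monocyte-like cluster 3, while Mmp9 runs from 0.940 in cluster 2 to 1.52 in cluster 9.

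In monocyte-like cells some of the 7 genes stood well above the B-cell reference and others near it. Taking all neutrophil-like over all monocyte-like cells, 6 of 7 members were at least 2-fold higher in each library (9% of all genes in control and 7.95% in MCAO cells). Slc11a1 was the exception, with a neutrophil over monocyte ratio of 0.808 in control and 0.985 in MCAO cells. Itgam, which monocytes are known to carry, was at 9.04 in control and 10.6 in MCAO cells of cluster 3 and at 3.52 and 4.01 in cluster 10, against 0.854 and 0.976 in the B-cell reference. Slc11a1 was at 1.06 and 0.967 in cluster 3 and at 3.15 and 3.48 in cluster 20, above its level in every neutrophil cluster and against 0.0280 and 0.0952 in the reference. Pglyrp1 was at 15.9 and 14.2 in cluster 20, and at 3.81 to 5.34 in clusters 3 and 10, where the reference stood at 3.39 and 4.35. Adam8 lay between 0.171 and 0.237 in clusters 3 and 10, near the 0.133 and 0.159 of the reference.

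Mmp8 differed most between the libraries. Its level over all monocyte-like cells was 3.86 in control and 7.13 in MCAO cells, a ratio of 1.85 [1.74 to 1.96] that exceeded that of 99.3% of genes ranked. It was the 1 of 7 members past 1.5-fold in this class (4.64% of all genes higher and 5.23% lower). In cluster 3, the larger cluster with Vcan and Ccr2 among its leading genes, it was at 4.55 and 9.83, a ratio of 2.16 [2.0 to 2.34]. Cluster 10 had 3.53 and 4.59, a ratio of 1.30 [1.19 to 1.42], and cluster 20 had 1.62 and 1.60. The B-cell reference had 1.92 and 2.14, a ratio of 1.11 [0.937 to 1.32].

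More cells of cluster 3 carried Mmp8 in the MCAO library. With cells thinned to 1000 UMIs, 30.4% of control cells [25.2 to 36.0] and 48.1% of MCAO cells [43.7 to 52.6] had an Mmp8 UMI, against 16% and 19.3% of the B-cell reference. Without thinning these shares were 77.9% and 92.0% in cluster 3, at median depths of 5485 and 6842 UMIs. At least 5 Mmp8 UMIs were seen in 54 of 294 control cells (18.4%) and 238 of 501 MCAO cells (47.5%). Leaving out marked doublets, 4 control and 15 MCAO cells of cluster 3, gave 4.48 and 9.27, a ratio of 2.07.

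Mmp9 in cluster 3 was at 1.5 in control and 2.44 in MCAO cells, a ratio of 1.62 [1.41 to 1.88] with 3 of 7 members past 1.5-fold there (6.66% of all genes higher and 6.46% lower): Mmp8, Mmp9 and Mmp25, the last with 12 and 44 UMIs. Mmp9 in the B-cell reference was at 1.6 and 1.9, a ratio of 1.19 [0.987 to 1.43], so the control level of cluster 3 was below the reference. In other cells that should lack most of the members the Mmp9 ratio varied. It was 2.41 [1.69 to 3.47] in T-cell-like, 1.57 [1.33 to 1.86] in pro-B-or-pre-B-like and 1.51 [1.34 to 1.69] in erythroid-like cells. Over all B-cell-like cells, cluster 25 included, it was 0.940 [0.838 to 1.05]. Without the marked doublets the Mmp9 ratio in cluster 3 was 1.2, at 1.51 and 1.81, both below the reference of their library, and the Mmp25 ratio was 1.31. The Mmp8 to Mmp9 balance in cluster 3 was 3.03 UMIs per UMI in control [2.62 to 3.5] and 4.03 in MCAO cells [3.74 to 4.34]. It was 1.2 and 1.13 in the B-cell reference and 1.57 and 1.29 over neutrophil-like cells.

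Secondary granule transcripts were also higher in MCAO monocyte-like cells, where 5 of 6 were past 1.5-fold (4.64% of all genes higher). Of the 4 primary granule genes 0 were past 1.5-fold there, with a median log2 ratio of 0.18. Lcn2 was at 11.2 in control and 20.4 in MCAO cells (10.6 and 14.2 in the B-cell reference), and Ltf at 4.19 and 6.37 (4.0 and 4.86 in the reference). The 7 immature-neutrophil markers, all above 0, summed to 48.8 and 75.3. In the MCAO cells of cluster 3 with at least 5 Mmp8 UMIs, Ltf was at 7.25 and Mmp9 at 3.17. The other MCAO cells of cluster 3 had 5.16 and 1.64, and 14 of the 15 marked doublets were among the chosen cells. In control cells Ltf was lower in the chosen cells (3.13) than in the others (3.61), and Mmp9 was at 1.88 and 1.39. Ngp was also lower in the chosen control cells (11.9 and 13.1). Retnlg, a leading gene of mature cluster 5, was higher in them (17.3 and 11.98), as was S100a8 (46.6 and 43.9). The part of these transcripts in the Mmp8 difference was not tested.

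In cluster 20, with 63 control and 43 MCAO cells, 2 of 5 members ranked were past 1.5-fold higher (11.6% of all genes higher and 11.8% lower). These were Itgam, at 5.63 and 9.80, a ratio of 1.74 [1.36 to 2.24], and Mmp9, at 1.13 (25 UMIs) and 2.90 (40 UMIs). The control Mmp9 level was below the 1.6 of the B-cell reference. Other neutrophil transcripts were also higher in MCAO cells of cluster 20. Ngp was at 13.4 and 46.2, a ratio of 3.44, and Ltf at 4.5 and 11.98, a ratio of 2.66. Lcn2 was at 9.68 and 19.4, Camp at 5.13 and 10.5, and S100a8 had a ratio of 1.88. Retnlg was not higher, with a ratio of 0.939. The part of these transcripts in the Itgam and Mmp9 differences was not tested. In cluster 10 the count of members past 1.5-fold was 0 of 7 (5.02% of all genes higher and 4.44% lower).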

How the data were processed

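Per the submitters' processing notes, reads were handled with fastp, STAR, UMI-tools and Seurat 4.0.6 on build mm10. Settings, gene annotation, counting strand and any cell filter: not given in the sources used here. As values the authors deposited the natural log of 1 plus 10000 times a gene's share of a cell's UMIs: linear values of every cell summed to 10000, and 100% of the 19373615 nonzero values gave whole UMIs to within 0.01 UMIs. The planned comparisons used these recovered UMIs. Column names (Mandarin for control and stroke, by translation) gave each cell's library. The libraries held 25886279 and 35401492 UMIs.

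Both libraries were clustered together without integration (scanpy 1.11.5, leidenalg 0.10.2, Python 3.11.15): 2000 variable genes by Pearson residuals with the 7 members left out, 30 principal components, 20 neighbours, Leiden resolution 1, 26 clusters. Names came from 19 marker sets. A name needed 3 markers detected in at least 20% of cells and was decided by the number of markers in the 10 leading genes, then by the marker score, a rule chosen with the data in view. Cluster 14, shallow and with no marker among its leading genes, stayed unnamed. Scrublet, with 2 simulated doublets for each cell, marked 54 control cells (1.04%) and 64 MCAO cells (1.19%), among them 38 of the 40 cells of cluster 25. Marked cells were kept, and left out as an alternative.

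Levels have exact Poisson intervals, shares exact binomial (Clopper-Pearson) intervals and ratios exact conditional intervals. UMI intervals cover counting error only. Log2 ratios used a pseudocount of 0.02 per 10000. Genes were ranked with at least 50 UMIs over both units compared and a UMI in at least 2% of cells of 1 of them. Without replicate libraries there was no p-value, and the past-fold counts (1.5-fold between libraries, 2-fold between stages) are descriptions. In simulated counts, 95.9% of intervals for mature cells and 95.4% for monocyte-like cells held the true fold. These counts carried Poisson error only, which is the error the intervals assume. The simulation therefore could not test spread between cells or libraries. The members, lists and markers were chosen with earlier results of these data known. Named were all 7 members, the 3 genes most like each (log2 of level plus 0.1, genes with at least 500 UMIs), and up to 4 genes of each list. Genes of the lists named beyond that, and the cut of 5 Mmp8 UMIs, were chosen after their values were seen. The alternatives were other clusterings, doublets left out, a depth band, thinning, means over cells, subtraction of free RNA and a larger pseudocount.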

Additional observations from a re-analysis of the deposited data

Results flagged for a closer look

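Mmp8 went in opposite directions in monocyte-like and neutrophil-like cells. Its MCAO to control ratio was 1.85 in monocyte-like cells, 0.908 in immature-neutrophil-like cells and 0.949 in mature-neutrophil-like cells. On the log2 scale the monocyte-like ratio was 1.02 above the immature one and 0.96 above the mature one. With 1 library per group the difference between cell classes was not tested.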

How the results depend on the processing

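No paired analysis was possible because the 2 groups have 1 library each and share only 1 replicate number. Leaving out a replicate was not possible for the same reason. Of the alternative values of the medians and stage counts, 56 stayed close to the reported value and 16 moved. A change of sign was looked for only where the reported value was past 1.5-fold, which none of these medians was. The mature median did change sign without cluster 5. In mature cells the median log2 ratio of the members (0.17) was 0.0075 at Leiden resolution 0.5, 0.012 with the members kept among the clustering genes, 0.0397 in cells of 2000 to 4000 UMIs and 0.22 as a mean over cells. With alternatives added after seeing the data it was -0.031 without cluster 5 and 0.0489 with clusters weighted alike. In monocyte-like cells the median (0.29) was 0.0138 in the depth band, 0 with the B-cell-like level subtracted, 0.19 without marked doublets and 0.17 with a pseudocount of 0.2. In pre-neutrophil-like cells (-0.09) it was -0.0099 after thinning and 0 with the B-cell-like level subtracted. The B-cell-like level subtracted included cluster 25, mostly marked doublets, and exceeded the level of several members in both classes. Values below 0 were set to 0, so these medians of 0 are not ratios corrected for free RNA. In immature cells (-0.05) the median was -0.0797 with the B-cell clusters that were not mostly doublets subtracted, also added later. Members highest in mature MCAO cells numbered 4, and 2 at resolution 0.5, in the depth band and with members kept among the clustering genes. The count was 2 in control cells under every alternative run. The cause of these shifts was not tested. The Mmp8 log2 ratio in monocyte-like cells was past 1.5-fold in 11 of 11 alternatives, Mmp9 in mature cells stayed above 0 in 12 of 12 and Adam8 in mature cells below 0 in 12 of 12. The largest of the Mmp8 values, 6.28, came with the B-cell-like level subtracted. That level in control, 5.79, exceeded the monocyte-like 3.86, so the control value was set to 0 and the pseudocount fixed the ratio. The depth band left 1 control promyelocyte-like cell and 8 control pre-neutrophil-like cells and was not run there.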

Other observations

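Macrophage-like cells (cluster 18, 82 control and 61 MCAO cells, led by C1qb and C1qc) carried Slc11a1 at 3.07 UMIs per 10000 in control and 2.21 in MCAO cells, beside 2.03 and 2.28 in neutrophil cluster 9. They also carried Mmp8 at 33.8 and 27.1 and Mmp9 at 19.7 and 23.8, far above the B-cell reference, and 1 of the 143 cells was marked as a doublet. In the control library 57.3% of these cells had an Mmp8 UMI, and in the MCAO library 75.4%. Other neutrophil transcripts were also far above the reference in cluster 18. Ngp was at 152 in control and 272 in MCAO cells (15.5 and 17.2 in the reference), and Ltf at 45.3 and 93.6 (4.0 and 4.86). Whether the Mmp8 and Mmp9 UMIs came from the macrophage-like cells themselves was not tested.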
